A study of Mus musculus with 2 samples.

Results

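The nuclei described here were a set of neurons of the mouse arcuate nucleus (ARC) marked by Vgll3 and Ndst4, here called Vgll3/Ndst4 nuclei. They were chosen as nuclei of the ARC side with a unique molecular identifier (UMI), the tag of 1 captured RNA molecule, in at least 4 of 8 genes: Vgll3, Ndst4, Gm32647, A630012P03Rik, Adamts18, Gpc3, P3h2 and Gulp1. The rule found 265 members among the 4395 ARC-side nuclei that passed the filters, or 6.03% (exact 95% binomial interval 5.34 to 6.77), out of 11409 barcodes in the deposited matrix.

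Nuclei came from male wild-type C57BL/6J mice of 10 to 12 weeks of age, were selected by NeuN, an RNA-binding protein of neuronal nuclei, and were sequenced as 1 pooled gene expression library with a library of hashtags. A hashtag is a barcoded antibody that marks the nuclei of 1 preparation, and the 2 hashtags were labelled ARC and PVH. The ARC side holds nuclei with at least 0.8 times as many ARC as PVH hashtag UMIs. Mice were pooled, so nuclei are not replicates, no test across nuclei was made, and every interval covers counting error only. Levels are given as CPM, a gene's UMIs summed over a group and divided by the group's total, times 1000000. With 1 pooled library, a gene carried by fewer nuclei of a group and one with fewer molecules per nucleus were told apart only as far as shares of nuclei allow.

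GABA neurons make up much of the arcuate nucleus, a region beside the third ventricle that reads hormones and nutrients of the blood. They make GABA with the glutamate decarboxylases encoded by Gad1 and Gad2 and load it into vesicles with the transporter encoded by Slc32a1, whereas neurons that release glutamate here mostly use the vesicular transporter encoded by Slc17a6. Besides the AGRP, dopamine and growth hormone-releasing classes, many arcuate GABA neurons carry no well-known peptide marker and are told apart by receptors, transcription factors and genes of the cell surface and matrix.

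The rule genes fall into such groups. Vgll3 encodes a cofactor of TEAD transcription factors. Ndst4 encodes an enzyme that removes acetyl groups from and sulfates heparan sulfate, and Gpc3 encodes a glypican, a membrane-anchored protein that carries heparan sulfate. Adamts18 encodes a secreted metalloprotease, P3h2 a prolyl hydroxylase that acts on collagen, and Gulp1 an adaptor of engulfment receptors. Gm32647 is a long intergenic non-coding RNA, and A630012P03Rik is an antisense RNA at Gpc3. On GRCm38 in the GENCODE M21 annotation, Vgll3 lies on the plus strand of chromosome 16 from 65815257 to 65866368 and overlaps no other gene. Ndst4 lies on the plus strand of chromosome 3 from 125404076 to 125728899, also without an overlapping gene. Gpc3 lies on the minus strand of chromosome X from 52272426 to 52613950, and A630012P03Rik runs against it from 52575843 to 52619047, sharing 38108 bases.

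Depth was much alike in members and the other 4130 ARC-side nuclei. Members held 1458789 UMIs in all, and a member had between 1805 and 11883 UMIs, with medians of 4913 UMIs and 2695 genes. The other nuclei held 20927118 UMIs, with a median of 4769. Median hashtag UMIs were 98 ARC and 78 PVH in members, and 93 and 76 in the other nuclei, so the hashtags set the sides apart narrowly. At least 2 times as many ARC as PVH hashtag UMIs were found in 31 members. HTODemux, which assigns nuclei to hashtags by another rule, called 84.9% of members and 83.2% of the other nuclei ARC. It called 17 members (6.42%) doublets of both hashtags. Marker lists of other cell types were summed in members and in the other nuclei. Over 5 markers, astrocyte genes were at 3.43 CPM in members and 10.8 in the other nuclei, with Gfap and Gja1 at 0 in members. The 5 oligodendrocyte markers were at 80.2 and 111 CPM, and the 5 microglia markers at 108 and 114, with C1qa and Tmem119 at 0 in members and P2ry12 giving 84.3 of the 108 CPM. The 4 markers of oligodendrocyte precursors were at 7.54 and 14.4 CPM, with Pdgfra and Cspg4 at 0 in members, and the 4 tanycyte markers at 43.9 and 70.8. Endothelial markers were at 8.23 and 7.79 CPM, all 12 UMIs of members being Pecam1, with Flt1, Cldn5 and Slco1a4 at 0, and the 5 mural and fibroblast markers had 0 UMIs in members. Snap25, which encodes a protein of synaptic vesicle fusion, was at 711 CPM in members (668 to 755) and 695 in the other nuclei.

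The number of rule genes per nucleus fell steeply and had no gap at the threshold. On the ARC side, 1788 nuclei had a UMI in 0 of the 8 genes, 258 had 3, 140 had 4, 70 had 5, and 5 had all 8. The 140 nuclei just inside the threshold and the 258 just outside it differed in where they clustered, as described below. On the PVH side, which the rule did not use, 162 of 5775 nuclei had 4 or more of the genes, or 2.81% (2.39 to 3.26). Those 162 nuclei were deeper than their side, with a median of 6315 UMIs against 4622, while members of the ARC side had nearly the median depth of theirs, 4774.

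**Figure D1:**
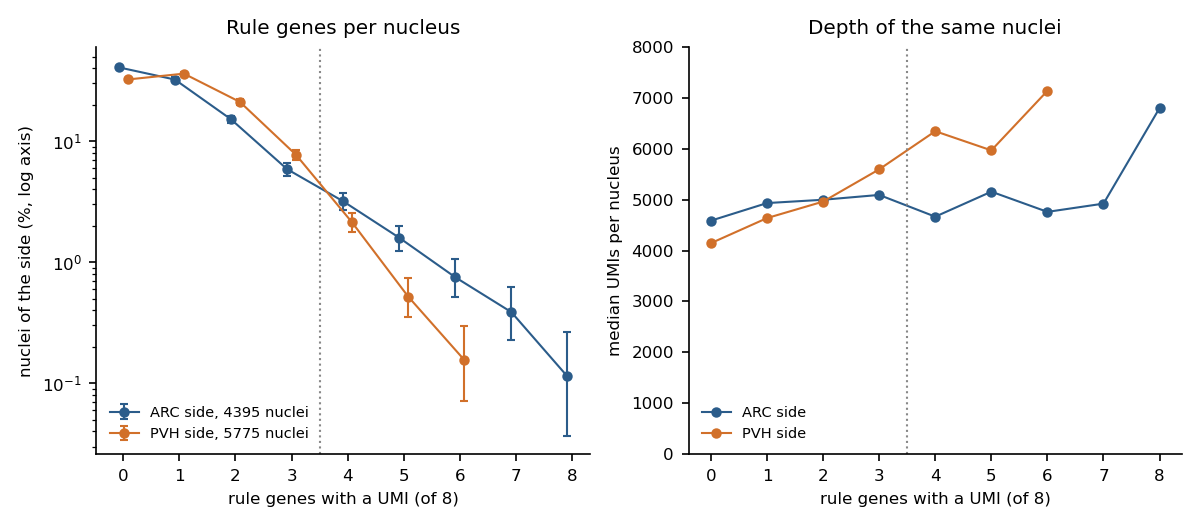
Left, percent of nuclei of each side (log axis, exact 95% binomial intervals) by the number of the 8 rule genes with a UMI. Right, median UMIs of the same nuclei. The dotted line marks the threshold. The ARC side runs to 8 genes at a depth near its median up to 7 genes, while the PVH side stops at 6 genes, with 9 nuclei at a median of 7139 UMIs.

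The rule genes chose the members, so their levels are a description. Vgll3 was at 176 CPM in members and 13.4 in the other ARC-side nuclei, and Ndst4 at 391 and 40.2. Gm32647 was at 1916 CPM in members and 224 in the other nuclei. A UMI of Gm32647 was found in 91.7% of members, of Ndst4 in 75.8% and of Vgll3 in 50.9%, and after each nucleus was thinned to 1000 UMIs these shares were 65.7%, 30.2% and 19.2%. In the other nuclei, at about the same median depth, the unthinned shares were 25.2%, 12.3% and 4.55%. A nucleus without a UMI of 1 rule gene may thus carry its RNA below this depth.

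To read each rule gene in nuclei it had not chosen, nuclei were chosen by at least 4 of the other 7. Each of the 8 genes stayed higher there than in all remaining ARC-side nuclei, though by less. Vgll3 was at 142 CPM (121 to 165) in the 209 nuclei chosen without it, 8.05-fold above the remaining nuclei (6.65 to 9.69). Gm32647 was 7.84-fold and Ndst4 7.37-fold higher, and P3h2 had the smallest ratio, 3.49-fold (2.73 to 4.42). These nuclei also share members across the 8 choices, so the 8 ratios are not separate results. The 8 genes were picked together with earlier results of these data known. A higher level of the gene left out was thus built into the list, and these ratios too are descriptions.

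Gpc3 and A630012P03Rik overlap on opposite strands, and 117 of the 162 members with a Gpc3 UMI (72.2%) also had an A630012P03Rik UMI, against 161 of 265 members in all (60.8%). The sources used here do not give how the counting treated strand, so reads of this pair cannot be told apart with certainty. The locus was therefore read in the 134 nuclei with at least 4 of the 6 rule genes that lie elsewhere. Gpc3 was 4.72-fold higher there than in the remaining ARC-side nuclei (3.89 to 5.69), A630012P03Rik 5.23-fold and Gm14582, a further antisense RNA within Gpc3, 3.11-fold (2.32 to 4.10). Gpc4, the neighbouring glypican gene 107173 bases away, was at a ratio of 0.715 with an interval that held 1 (0.460 to 1.06).

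Leiden clustering of the ARC-side nuclei at a resolution of 0.55 gave 15 clusters, numbered by size. Cluster 6, of 300 nuclei, held 187 of the 265 members, or 70.6% (64.7 to 76.0), and members were 62.3% of it. The share hardly moved between resolutions of 0.3 and 2.0, where 186 or 187 members shared 1 cluster, and 184 did so when the 8 rule genes were left out of the variable genes. The remaining 78 members lay in other clusters, most of all in clusters 3 and 7 with 15 each, cluster 10 with 14 and cluster 1 with 11, and cluster 5 had 0. They were deeper, with a median of 6423.5 UMIs against 4638 in the members of cluster 6, and 8 of the 78 (10.3%) were hashtag doublets against 9 of 187 (4.81%). The part of depth and doublets in their passing the rule was not tested. Cluster 6 also held 113 nuclei that did not pass the rule, with a median of 3963 UMIs.

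Membership of cluster 6 rose with the number of rule genes. It took in 0.224% of the nuclei with 0 rule genes, 19.0% of those with 3, 55.0% of those with 4, 82.9% of those with 5 and 94.5% of those with 6 or more. Those just inside the threshold were thus split between cluster 6 and the rest, and those just outside it were mostly elsewhere. The clusters were built on these same nuclei and genes, so levels by cluster are descriptions. Each of the 8 rule genes had its highest CPM of the 15 clusters in cluster 6. Vgll3 was at 180.0 CPM in cluster 6 and 131 in cluster 8, a cluster rich in Slc17a6. Ndst4 was at 433 CPM in cluster 6 against 90.9 in cluster 7, the next in order. Gpc3 was at 190.1 CPM in cluster 6 and 139 in cluster 7.

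The label of these nuclei names GABA, and the transmitter genes went with it in part. Gad1, the only one of the 5 markers named for them that was not a rule gene, was at 101 CPM in members (85.1 to 118) and 61.2 in the other ARC-side nuclei, a ratio of 1.65 (1.38 to 1.96). Gad2 was lower, at 76.8 against 130.0 CPM, a ratio of 0.591 (0.485 to 0.714). Slc32a1 was at 43.9 against 36.6 CPM, with an interval of the ratio that held 1 (0.914 to 1.55). Slc17a6 was 2.71-fold lower in members, at 17.8 CPM (11.6 to 26.1) against 48.4. Members thus had more Gad1, less Gad2 and less Slc17a6 per UMI than the other nuclei as a whole, which themselves hold many GABA neurons.

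The members of cluster 6 and those outside it differed in these genes. Gad1 was at 126 CPM in members of cluster 6, 122 in the other nuclei of that cluster and 55.8 in members outside it. Of all 15 clusters, cluster 6 had the highest Gad1 level, 125 CPM (107 to 145), followed by cluster 11 with 98.1 (80.1 to 119), and the intervals overlap. Gad2 did not follow, at 74.9 CPM in cluster 6 and 168 in cluster 1. It was at 67.8 CPM in cluster 7, where Slc17a6 was at 115 CPM. Slc17a6 was at 12.8 CPM in members of cluster 6 and 26.9 in those outside, far under the 217 CPM of cluster 8. At least 1 UMI of Gad1, Gad2 or Slc32a1 was found in 164 members, or 61.9% (55.7 to 67.8), against 59.7% of the other ARC-side nuclei. The same share was 63.6% in members of cluster 6 and 38.9% in cluster 8, at median depths of 4638 and 4583 UMIs. A UMI of Slc17a6 was found in 6.42% of members of cluster 6 and 60.7% of the nuclei of cluster 8. Since so many nuclei of cluster 8 also had a UMI of a GABA gene, single members cannot be called GABA neurons from 1 UMI, and 33.6% of members had a UMI of none of the 4 genes.

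Against the other GABA nuclei of the ARC side, the order changed. These were 1066 non-members with at least 2 UMIs over Gad1, Gad2 and Slc32a1 and 0 of Slc17a6, so the 4 genes chose them. Gad1 in members was below their level, at a ratio of 0.738, and Gad2 at 0.247. The 1066 nuclei were chosen on these genes and members were not, so neither ratio is independent of the choice. Of the 14074 genes with enough UMIs, members had 2.52% at 2-fold or more above these nuclei and 4.63% at 2-fold or more below.

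Of 40 neuropeptide genes with enough UMIs, 0 were 2-fold or more higher in members and 4 (10.0%) were lower, shares near those of the 16881 genes tested, 3.10% higher and 8.74% lower. Agrp, whose peptide drives feeding, was at 160 CPM in members and 178 in the other nuclei, in 54.0% and 53.4% of nuclei. It was also found in 49.4% of the PVH-side nuclei with 0 rule genes, at 174 CPM. By cluster it was found in 72.5% of nuclei of cluster 2 and 52.1% of those of cluster 3. Pomc, the melanocortin precursor, was at 114 and 161 CPM, and Npy at 85.7 and 122. Oxt, a peptide gene of other hypothalamic nuclei, was found in 91.7% of members and 90.3% of the other nuclei, and its level was 542 CPM against 572. With UMIs spread over so many nuclei, neither Agrp nor Oxt marks the class of a single nucleus here. The cause of the spread was not tested. Sst was at 87.1 and 92.3 CPM, within counting error.

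Of the 16881 genes with at least 20 UMIs in both groups together, 524 were 2-fold or more higher in members (3.10%) and 1475 lower (8.74%). The median log2 ratio of all of them was -0.003. The count of each gene list below stands beside these shares. Most of the 524 and 1475 genes had few UMIs, and for 64 higher and 56 lower genes the whole interval lay past 2-fold. The 20 genes with the highest ratios outside the rule, among those found in at least 10% of members, were led by a serotonin receptor subunit, 2 chains of collagen IV and an RNA antisense to one of them. They lay between 3.40-fold for Nkain2 and 27.9-fold for Htr3b, and leaving out for each gene the member with the most UMIs left them between 3.28-fold and 24.9-fold.

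Htr3b, which encodes the B subunit of the serotonin-gated 5-HT3 channel, was at 49.4 CPM in members (38.6 to 62.2) and 1.77 in the other ARC-side nuclei, 27.9-fold higher (18.5 to 42.7). It was found in 17.7% of members and 0.678% of the other nuclei, and after thinning in 4.53% and 0.121%. Members of cluster 6 had it at 75.6 CPM, the other nuclei of that cluster at 46.7 and members outside it at 1.92. Its partner subunit gene Htr3a, 23908 bases away on chromosome 9, had 0 UMIs in members, where 3 UMIs would be 2.06 CPM, and 0.478 CPM in the other nuclei. The B subunit is known to form channels together with the A subunit, and a level of Htr3a under that limit could not be seen at this depth.

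Chrm3, which encodes the M3 muscarinic acetylcholine receptor, was abundant enough to be read in most members. It was at 515 CPM in members (479 to 553) and 120.0 in the other nuclei, 4.29-fold higher (3.95 to 4.66), and in 67.2% against 27.5% of nuclei (35.5% and 9.98% after thinning). Members of cluster 6 had 720.0 CPM and those outside it 144. In a list of further receptors of amines and acetylcholine, which did not hold Htr3b, Chrm3 was the 1 of 28 genes 2-fold or more higher (3.57%, beside 3.10% of all genes), and 7 were lower (25.0%, beside 8.74%). Adra1a, an adrenergic receptor gene, was at 17.1 against 53.2 CPM. Htr1b had 0 UMIs in members, where the upper limit of the exact interval was 2.53 CPM, against 7.26 CPM in the other nuclei. Htr2c and Chrm2 were at ratios of 0.987 (0.847 to 1.14) and 1.04 (0.793 to 1.33).

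Several leading genes encode proteins of the cell surface and matrix. Gpc6, a glypican gene as Gpc3 is, was at 2004 CPM in members and 454 in the other nuclei, 4.41-fold higher (4.23 to 4.60), and at 2672 CPM in members of cluster 6, 2269 in its other nuclei and 796 in members outside. By cluster it was at 2542 CPM in cluster 6 and 1363 in cluster 10, the next in order. In a list of 12 further core proteins of heparan sulfate, which left out the rule gene Gpc3, Gpc6 and Col18a1, the collagen XVIII gene, were 2-fold or more higher (16.7%) and 0 lower. Col18a1 was at 42.5 against 12.8 CPM, 3.33-fold (2.48 to 4.41). Gpc5 went the other way without passing 2-fold, at 210 against 369 CPM. Among 28 genes of heparan sulfate synthesis, 0 were 2-fold higher and 2 lower (7.14%). Hs6st2, which encodes a 6-O-sulfotransferase, was at a ratio of 1.77 (1.58 to 1.98), with 291 CPM in members of cluster 6 and 139 in those outside it. Ext1, which encodes a polymerase of the heparan sulfate chain, was at 154 CPM in both groups. Ndst4, the enzyme gene among the rule genes, was not counted in this list.

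Of 38 collagen genes tested, 6 were 2-fold or more higher (15.8%) and 9 lower (23.7%), beside 3.10% and 8.74% of all genes. Besides Col4a3, Col4a4 and Col18a1, Col14a1 was at 28.1 against 5.97 CPM, 4.71-fold higher (3.22 to 6.74), while Col6a4 and Col27a1 rested on 3 UMIs each in members. The widely used collagen IV chains did not follow, with Col4a1 at 32.9 against 40.8 CPM and Col4a2 at 71.3 against 76.9. Col12a1 had 0 UMIs in members, with an upper limit of 2.53 CPM, against 7.55 CPM in the other nuclei. Colgalt2, which encodes an enzyme that adds galactose to collagen, was 3.98-fold higher (2.62 to 5.89). It was the 1 gene 2-fold or more higher of a list of 18 that modify collagen, which left out the rule gene P3h2, and 3 of them were lower (16.7%). Of 19 genes of the ADAMTS family tested, 6 were higher (31.6%) and 5 lower (26.3%), and this list did not leave out the rule gene. The whole interval lay past 2-fold for 2 of the higher and 1 of the lower genes. Adamts18 was that rule gene, so its place among the 6 came with the choice of members. So did its place among the 2 with the whole interval past 2-fold, of which the other was Adamts5. The others of the 6 ranged from Adamts5, at 11.0 against 2.48 CPM (4.41-fold, 2.35 to 7.85), to Adamtsl1, at 39.8 against 19.8 (2.01-fold). Adamts9 was at 2.74 against 16.6 CPM, from 4 UMIs in members.

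**Figure D2:**
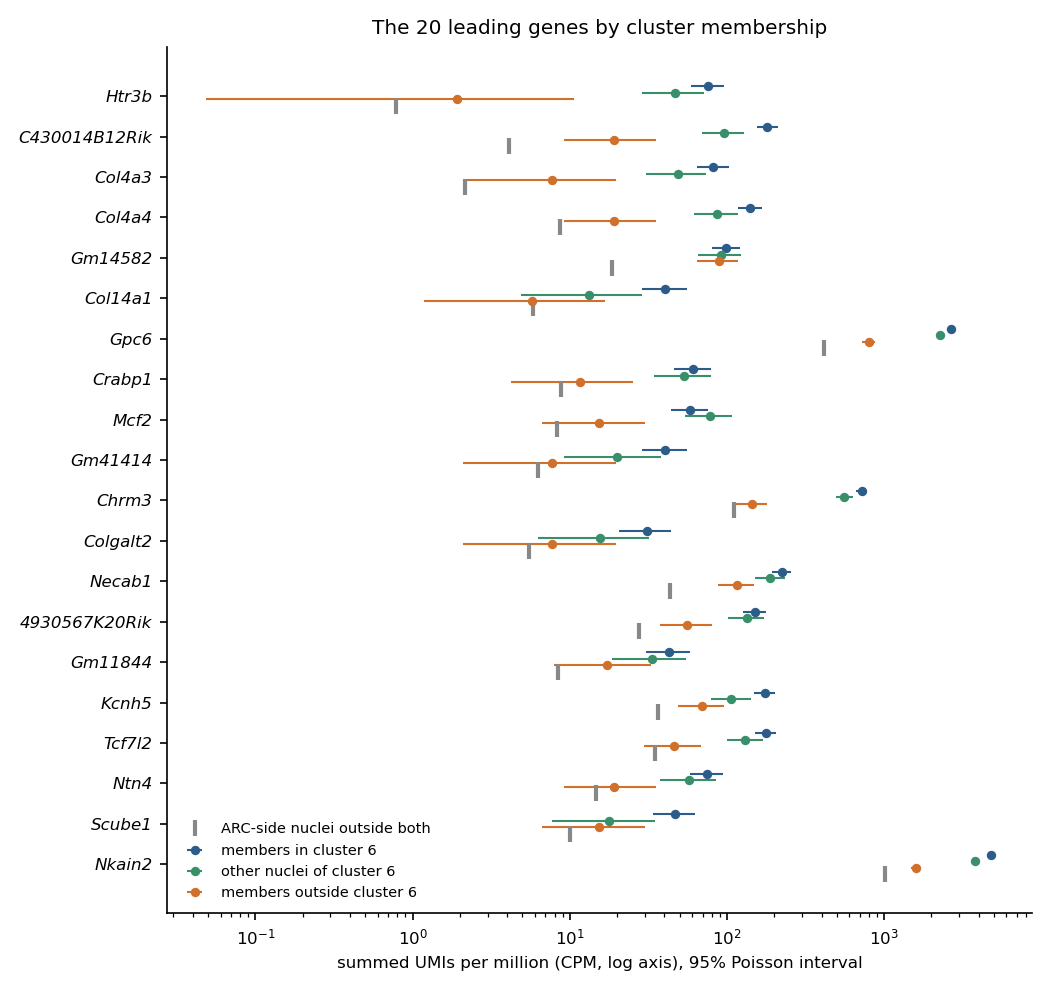
Level in CPM (log axis, exact 95% Poisson intervals) of the 20 leading genes in members of cluster 6, other nuclei of cluster 6 and members outside it, with ARC-side nuclei in neither group as grey ticks without intervals. Points of members in cluster 6 and of the other nuclei of that cluster lie to the right of the ticks for every gene, while members outside it lie near the ticks for genes such as Htr3b, Chrm3 and Col14a1 and with cluster 6 for Gm14582.

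The leading genes were also high in nuclei of cluster 6 that did not pass the rule. The 4017 ARC-side nuclei in neither group served as the comparison. Over these, 20 of the 20 leading genes were 2-fold or more higher in members of cluster 6, where 4.79% of all genes tested were. In the 113 other nuclei of cluster 6, which did not pass the rule, 19 of 20 were (6.51% of all genes), with Scube1 at 1.76-fold. In the 78 members outside cluster 6, 8 of 20 were (4.61% of all genes). Among these, Htr3b rested on 1 UMI (0.0587 to 15.8) and Col4a3 on 4 (0.934 to 9.84). Their intervals and that of Gm11844 (0.927 to 4.00) held 1. Leading genes were chosen on all members, so these counts are descriptions. Against the 1066 other GABA nuclei all 20 were also 2-fold or more higher, beside 2.52% of genes tested. Not all of the 20 had their highest level in cluster 6. Necab1 and Gm11844 were highest in cluster 15 and Scube1 in cluster 7. Nkain2 was highest in cluster 10, at 5119 CPM against 4458 in cluster 6.

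Nuclei of the PVH side that passed the same 8-gene rule offered values the choice of leading genes did not use. There, 6 of the 20 genes were 2-fold or more higher than in the other PVH-side nuclei, beside 3.40% of all genes tested there (9.70% were 2-fold or more lower), and 10 had an interval above 1. Col4a3 was 7.20-fold (3.76 to 13.0) and C430014B12Rik 6.64-fold higher (4.09 to 10.4), and Htr3b rested on 4 UMIs (4.75-fold, 1.19 to 14.1). Gpc6 was at 1.36-fold and Chrm3 at 1.05-fold (0.882 to 1.23). Gad1 was at 0.944 (0.701 to 1.24). The PVH-side nuclei passing the rule thus had part of the pattern at lower ratios, and they were deeper than the nuclei they were set against. HTODemux called 54.3% of the 162 PVH, 19.1% doublets of both hashtags, 24.1% negative and 2.47% ARC. In the other PVH-side nuclei these shares were 53.2%, 11.8%, 33.3% and 1.78%. The part of doublets in these ratios was not tested.

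Some of the leading genes rose with the number of rule genes on the ARC side. The share of nuclei in cluster 6 also rose over these steps, from 0.224% to 94.5%, and its part in the levels was not tested. Chrm3 was at 99.1 CPM in nuclei with 0 rule genes, 186 with 3, 378 with 4 and 667 with 6 or more. Gpc6 ran from 324 to 2762 CPM and Htr3b from 0.361 to 102. Col4a4 did not rise throughout, at 108 CPM with 4 rule genes, 105 with 5 and 63.5 with 6 or more. C430014B12Rik was at 109, 171 and 98.4 CPM there, and Col4a3 at 47.9, 74.0 and 50.8. Gad1 stayed between 57.9 and 63.7 CPM up to 3 rule genes and was at 143 with 6 or more. Gad2 went the other way, from 138 CPM with 0 rule genes to 97.2 with 3 and 50.8 with 6 or more. Slc32a1 was at 35.1, 34.0 and 63.5 CPM at these steps. Lepr, the leptin receptor gene, fell from 55.5 to 3.18 CPM. On the PVH side, Gad1 stayed between 29.8 and 56.5 CPM over the same steps, with the lowest value in 9 nuclei.

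**Figure D3:**
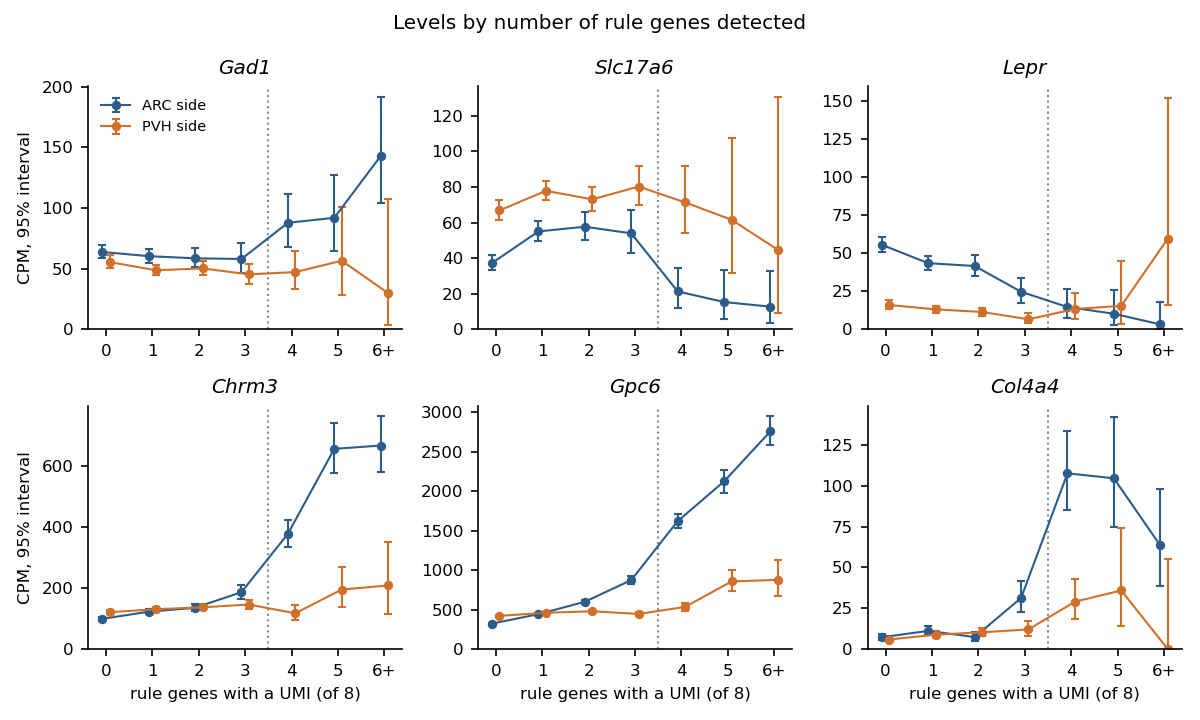
CPM (linear axes from 0, exact 95% Poisson intervals) of 6 genes in nuclei grouped by the number of rule genes with a UMI, on the ARC side and the PVH side. The dotted line marks the threshold. On the ARC side Gad1, Chrm3 and Gpc6 are highest at 6 or more genes, Col4a4 is highest at 4 and 5, and Slc17a6 and Lepr are lowest at 6 or more. On the PVH side Chrm3 and Gpc6 span a smaller range, and Lepr is highest, at 59.5 CPM, in the 9 nuclei with 6 genes.

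Receptor genes for fast and slow transmitter signals differed in both directions. Grm5, which encodes a metabotropic glutamate receptor, was at 1925 against 605 CPM, 3.18-fold higher (3.06 to 3.32), with 2500 CPM in members of cluster 6 and 887 in members outside it. Grik1, a kainate receptor subunit gene, was lower, at 144 against 329.5 CPM. Glra1, the glycine receptor alpha 1 gene, was 2.20-fold higher (1.70 to 2.83), whereas Glra2 and Glra3 were lower, at 11.7 against 38.8 and 39.8 against 97.5 CPM. In all, 2 of 22 genes of GABA and glycine receptors were higher (9.09%) and 3 lower (13.6%).

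Kcnh5, a voltage-gated potassium channel gene, was at 137 against 38.2 CPM (3.59-fold, 3.06 to 4.20), and Kcnab1, a potassium channel beta subunit gene, at 359 against 173. Of 72 potassium channel genes, 5 were higher (6.94%) and 6 lower (8.33%, near the 8.74% of all genes), among them Kcnc2 at 169 against 381 CPM and Kcnmb2, a subunit of calcium-activated channels, at 17.1 against 77.7. Pde1a, which encodes a phosphodiesterase that calcium and calmodulin activate, was 2.63-fold higher (2.40 to 2.87). Plxna2, a semaphorin receptor gene, was 2.46-fold higher and Ntn4, a netrin gene, 3.51-fold, as the 2 higher of 63 axon guidance genes, of which 11 were lower (17.5%), Robo2 at 110.4 against 280.3 CPM among them. Tenm1 and Cntn4, adhesion genes, were at 1032 against 457 and 672 against 317 CPM, among 5 higher (8.77%) and 4 lower (7.02%) of 57.

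Of 47 genes for metabolic and peptide receptors, 1 was 2-fold higher, Ntsr2 with 3 UMIs (2.13%, beside 3.10% of all genes), and 11 were lower (23.4%, beside 8.74%). Lepr was at 11.0 CPM in members (6.27 to 17.8) and 46.6 in the other nuclei, 4.25-fold lower, with 5.33 CPM in members of cluster 6 and 21.2 in those outside. Ghr, the growth hormone receptor gene, was 3.57-fold lower, at 125 against 448 CPM. Npy2r was at 16.5 against 46.0 CPM and Calcr, the calcitonin receptor gene, at 19.9 against 41.2. Against the other GABA nuclei Lepr was at a ratio of 0.215 (0.121 to 0.355). Lepr, Ghr and Npy2r are receptor genes known from AGRP neurons. The 5 markers of that class were summed at 289 CPM in members and 413 in the other nuclei. Agrp gave 160 and 178 CPM of these sums, and Npy 85.7 and 122. The part of AGRP neurons in the lower receptor levels was not tested.

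Of 24 nuclear receptor genes tested, 3 were higher (12.5%) and 5 lower (20.8%). Rxrg, a retinoid X receptor gene, was 3.21-fold (2.60 to 3.94), Thrb, the thyroid hormone receptor beta gene, 2.81-fold (2.59 to 3.04) and Rarb, a retinoic acid receptor gene, 2.09-fold higher (1.73 to 2.52). Thrb was found in 80.0% of members and 39.7% of the other nuclei. Crabp1, which encodes a cytosolic binding protein of retinoic acid, was among the leading genes at 43.2 against 9.80 CPM, 4.41-fold (3.27 to 5.87). The oestrogen receptor gene Esr1 was at 43.9 against 121 CPM and the progesterone receptor gene Pgr at 31.5 against 73.6. Esr1 was at 16.0 CPM in members of cluster 6 and 94.3 in members outside it.

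Of 75 transcription factor genes, 4 were higher (5.33%, beside 3.10% of all genes) and 22 lower (29.3%, beside 8.74%). Tcf7l2, an effector of Wnt signals, was 3.53-fold higher (2.99 to 4.14), with 177 CPM in members of cluster 6 and 46.2 in those outside it. By cluster it was at 162 CPM in cluster 6 and 136 in cluster 5, the next in order. Nkx2-1, a factor of the ventral hypothalamus, was 2.62-fold higher (1.89 to 3.57). Hmx3 and Lhx2, the other 2, had 10 and 6 UMIs in members. Prox1 was at 11.0 against 43.2 CPM and Tcf4 at 102 against 242. Isl1, a factor of many arcuate neurons, was at 173 against 127 CPM, a ratio of 1.36 (1.19 to 1.55). Sim1, which marks the paraventricular nucleus, was at 1.07 CPM in members of cluster 6, from 1 UMI, and 30.8 in members outside it.

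Of 18 genes of TEAD factors and Hippo signals, the pathway of the Vgll3 cofactor, 2 were higher and 2 lower (11.1% each), counts too small to set beside the shares of all genes. Amotl2 and Vgll2, the 2 higher, had 10 and 7 UMIs, and Wwtr1 and Yap1, the 2 lower, 1 UMI each. Tead1, a TEAD factor gene, was at 282 against 209 CPM, a ratio of 1.35 (1.21 to 1.49). Of 11 engulfment receptors and partners of Gulp1, 0 were higher and 2 lower (18.2%), Dock1 at 19.2 against 76.1 CPM and Megf11 at 19.9 against 54.9. Of 9 immediate early genes, 0 were higher and 3 lower.

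The 10 lowest genes, among those common enough to give 50 UMIs in members at the level of the other nuclei, lay between 3.59-fold lower for Socs2 and 6.22-fold lower for Corin. Corin encodes a protease that activates a natriuretic peptide, and was at 6.86 CPM in members against 42.7. Angpt1, an angiopoietin gene, was at 14.4 against 70.1 CPM, and Csgalnact1, which encodes an enzyme of chondroitin sulfate synthesis, at 32.2 against 123. Corin was also among the leading genes of cluster 2, which had 1 member.

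**Figure D4:**
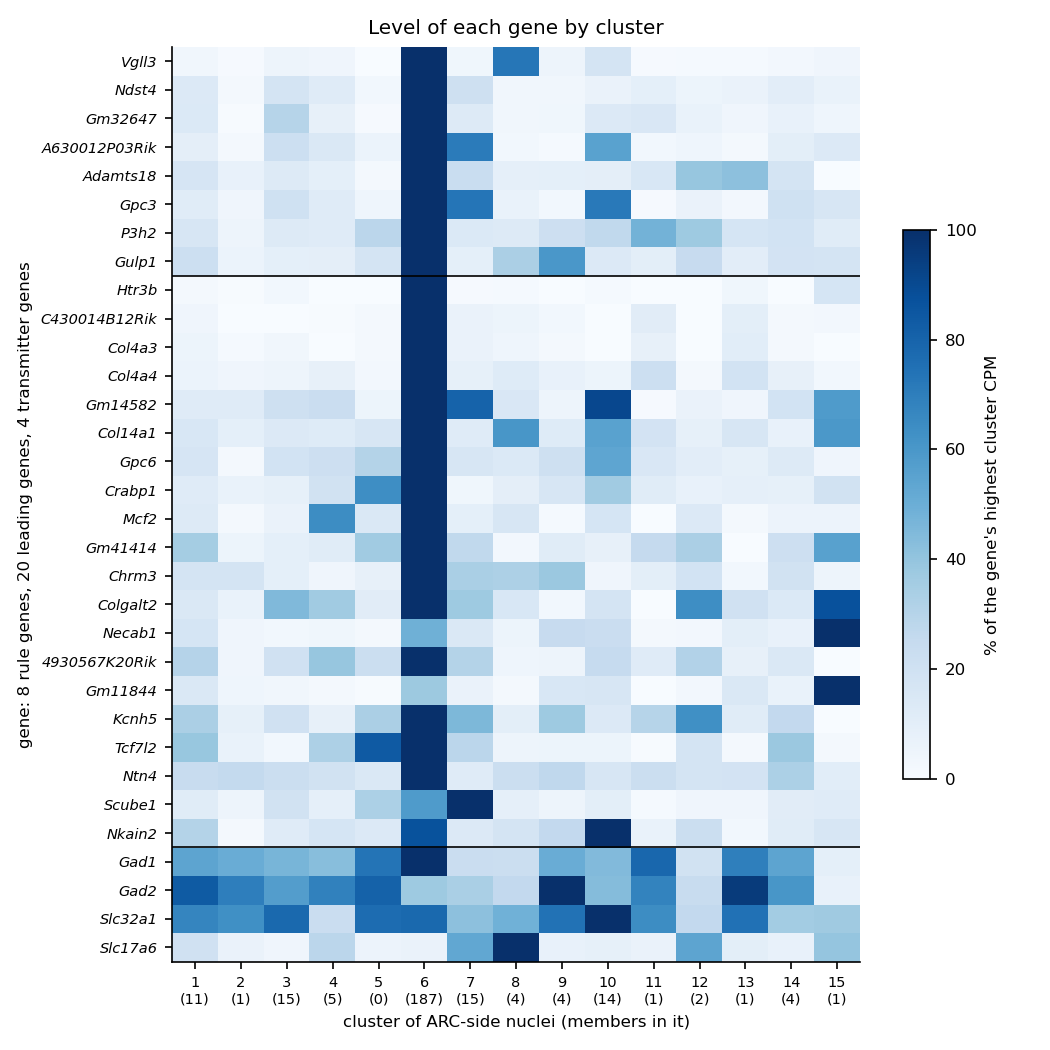
Level of each gene in the 15 clusters of ARC-side nuclei, as percent of its highest cluster CPM (colour). Rows are the 8 rule genes, the 20 leading genes and 4 transmitter genes, divided by lines, and the number of members is given under each cluster. All 8 rule genes, 16 of the 20 leading genes and Gad1, but not Gad2, have their highest level in cluster 6. Gpc3 and its antisense RNAs are also high in clusters 7 and 10.

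Col4a3 and Col4a4 encode chains of the collagen IV network of specialised basement membranes. They lie head to head on chromosome 1 of GRCm38, Col4a4 on the minus strand from 82448423 to 82586849 and Col4a3 on the plus strand from 82586921 to 82722059, so that 71 bases separate their starts. C430014B12Rik, an RNA on the minus strand from 82691928 to 82725169, runs against the end of Col4a3 and shares 30132 bases with it. The stretch between the starts is shown because both collagen genes were among the 4 genes with the highest ratios. It is given from RefSeq on GRCm38.p6, chr1:82586850-82586920, on the minus strand, 5′ to 3′ in the direction of Col4a4, in lower case throughout since no motif searched was found.
Col4a4 to Col4a3 gap: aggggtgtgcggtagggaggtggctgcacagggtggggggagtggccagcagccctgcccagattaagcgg

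G and C made up 69.0% of these bases. Searched on both strands, the stretch held 0 matches to GGGCGG (the GC box), CCAAT and TATAAA, letters that 20.7%, 13.3% and 4.41% of the 71-base windows before 32851 annotated gene starts hold. That says only that these letters are not in this window.

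The 3 genes of this locus were found in the same nuclei. Col4a3 was at 55.5 CPM in members and 3.15 in the other nuclei (17.6-fold, 12.6 to 24.7), Col4a4 at 97.3 and 10.4 (9.39-fold, 7.54 to 11.7), and C430014B12Rik at 123 and 6.07 (20.3-fold, 16.1 to 25.7). Of the 44 members with a Col4a3 UMI, 32 (72.7%, 57.2 to 85.0) also had Col4a4, against 10.9% of the members without Col4a3. C430014B12Rik was found in 33 of the 44 (75.0%) and in 12.7% of the others. The overlap with Col4a3 bears on this last pair, since strand handling is not given, but not on Col4a3 and Col4a4, whose models do not overlap. Htr3b, on another chromosome, was found in 31.8% of members with Col4a3 (18.6 to 47.6) and 14.9% of those without (10.5 to 20.3), in 26.8% and 15.3% with and without Col4a4, and in 19.7% and 17.2% with and without C430014B12Rik. These intervals overlap for all 3 genes.

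At least 2 of the 3 genes were found in 47 of the 187 members of cluster 6 (25.1%, 19.1 to 32.0), in 19 of its 113 other nuclei (16.8%, 10.4 to 25.0) and in 3 of the 78 members outside it. They were found in 44 of the 4130 other ARC-side nuclei (1.07%, 0.775 to 1.43) and in 7 of the 162 PVH-side nuclei that passed the rule. In 113 of the 187 members of cluster 6, none of the 3 was found. Cluster 6 thus held nuclei with several UMIs of the locus beside many with 0, at median depths of 4531 UMIs for the 47 and 4693 for the 113.

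The 47 and the 113 members of cluster 6 were set side by side, a division chosen after the values had been seen and given as a description. Chrm3 was at 1126 CPM in the 47 and 542 in the 113, a ratio of 2.08 (1.76 to 2.46). Gm32647 was 1.85-fold (1.69 to 2.02), Kcnh5 1.71-fold (1.21 to 2.39), Col14a1 3.27-fold (1.59 to 6.86) and Scube1, which encodes a secreted and membrane protein, 3.17-fold (1.61 to 6.36) higher in the 47. Colgalt2 was 2.64-fold higher (1.15 to 6.10). Adamts18 was at a ratio of 1.44 (1.01 to 2.05). Of the other rule genes, Vgll3 was at 0.969 (0.691 to 1.34), Ndst4 at 0.927 (0.741 to 1.15) and Gulp1 at 0.980 (0.710 to 1.34). The rule chose both groups, so the ratios of rule genes are held in part by that choice. Gad1 was at 0.993 (0.627 to 1.54), Gpc6 at 1.06 (0.965 to 1.16) and Nkain2 at 1.00 (0.931 to 1.07).

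Other genes were lower in the 47. Pcdh11x, a protocadherin gene, was at 34.3 against 178 CPM, a ratio of 0.192 (0.0808 to 0.393), and Etl4 at 42.8 against 178, a ratio of 0.240 (0.112 to 0.460). Slc35f1 was at a ratio of 0.207 (0.0806 to 0.445). Etl4 and Slc35f1 were picked for being among the lowest ratios of this same division. Mcf2, which encodes a guanine nucleotide exchange factor, was at a ratio of 0.418 (0.158 to 0.942), Tcf7l2 at a ratio of 0.639 (0.413 to 0.962) and Gpc3 at 0.657 (0.453 to 0.932). Of 5767 genes with at least 30 UMIs, 71 (1.23%) were 2-fold or more higher in the 47 and 199 (3.45%) lower. By interval, 218 of the 5767 lay wholly above 1 and 248 wholly below. Chrm3, Col14a1, Scube1 and Colgalt2 had intervals above 1, and Pcdh11x, Etl4 and Mcf2 below, in a division made after the values were seen. In the 47, Colgalt2 rested on 14 UMIs, Pcdh11x on 8 and Mcf2 on 7. Of the rule genes, Gm32647 and Adamts18 had intervals above 1 and Gpc3 below. Those of Vgll3 and Ndst4 held 1, as did that of Gad1.

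**Figure D5:**
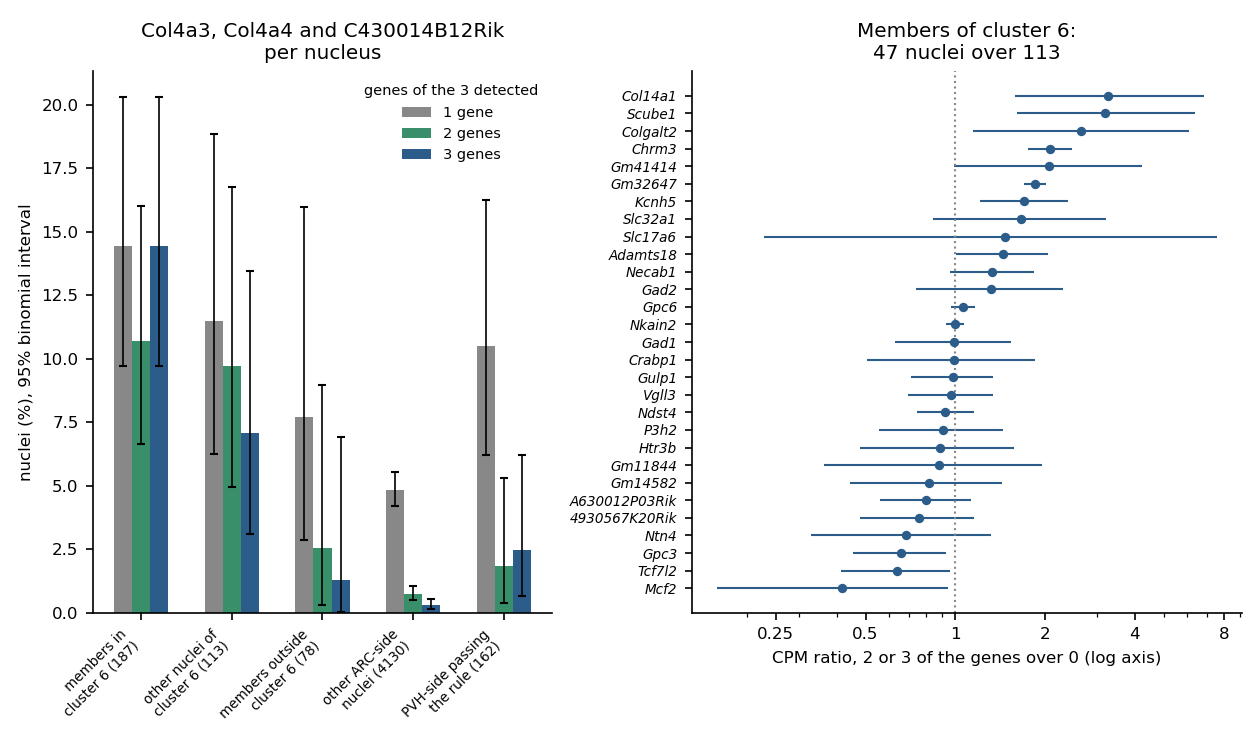
Left, percent of nuclei with a UMI of 1, 2 or 3 of the genes Col4a3, Col4a4 and C430014B12Rik in 5 groups (bars from 0, exact 95% binomial intervals). Right, CPM ratios with 95% intervals (log axis) of the rule, leading and transmitter genes other than these 3 in the 47 members of cluster 6 with 2 or 3 of them over the 113 with none. Nuclei with 3 of the genes are 14.4% of members in cluster 6 and 0.315% of other ARC-side nuclei, and Col14a1, Scube1, Chrm3 and Gm32647 have intervals above 1 while Vgll3, Ndst4 and Gad1 hold 1.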

How the data were processed

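The authors deposited 1 matrix of raw UMI counts per gene and barcode with the hashtag counts of the same barcodes, made with Cell Ranger (5.0 in the submitters' processing notes, 4.0.0 in the matrix header) on mm10, and not normalized. Filters on genes (over 800, under 5000), UMIs (12000 at most) and mitochondrial share (1% at most) left 10170 nuclei. Levels and exact intervals were computed in Python 3.11.15 with numpy 2.4.6, scipy 1.17.1 and pandas 2.3.3. HTODemux (positive quantile 0.8) and Leiden clustering (2000 variable genes, 30 components, 20 neighbours) were run with Seurat 5.3.0 and leidenbase 0.1.32 in R 4.3.3. The deposited counts were summed over nuclei without a count model. Doublets were read from hashtags only.

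Genes with at least 20 UMIs over both groups were compared, and a ratio of 2 or more, either way, was counted. Named genes were the 8 rule genes, 4 transmitter genes, up to 4 genes of each of the lists, the 20 highest ratios among genes with at least 20 UMIs and a UMI in at least 10% of members, and the 10 lowest. Some lists name more than 4 genes where members inside and outside cluster 6 are set apart. Etl4 and Slc35f1 were named from the lowest ratios of the division of cluster 6 members by the collagen locus. Members and lists were chosen with earlier results of these data known. Gene positions came from GENCODE M21, in which 32158 of 32285 identifiers were found. The comparison step was tested on simulated data. A few genes of the lists are not reported here.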

Additional observations from a re-analysis of the deposited data

How the results depend on the processing

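No paired analysis was possible because the mice were pooled in 1 library and no label gives replicates. The share of members in 1 cluster stayed between 69.4% and 70.6% under 5 other clustering settings. The number of members, 265, was 523 with at least 3 rule genes, 125 with at least 5, 31 with ARC hashtag UMIs at least 2 times PVH, and 23 when chosen after thinning to 1000 UMIs.

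The log2 ratio of Gad1, 0.72, was 0.36 with at least 3 rule genes, 1.00 at the stricter hashtag ratio and 2.02 in the nuclei chosen after thinning. It was 1.04 in members of the main cluster only, an alternative chosen after seeing the data, and reversed to -0.44 against the other GABA nuclei, which were chosen on Gad1. That of Slc17a6, -1.44, was -0.41 with at least 3 rule genes and -2.19 at the stricter hashtag ratio. It had no value against the GABA nuclei, which were chosen to have 0 Slc17a6 UMIs, or in the nuclei chosen after thinning, which had 0.

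The count of genes 2-fold higher, 524, was 299 with at least 3 rule genes, 835 with at least 5, 802 in members of the main cluster, 2137 after thinning and choosing again, 824, 1739 and 159 with minimums of 10, 1 and 100 UMIs, and 64 with the whole interval past 2-fold. The count lower, 1475, was 760 and 2378 with at least 3 and 5 rule genes, 6478 after thinning and choosing again, 652 against the GABA nuclei, 918 against nuclei with 0 rule genes, 6655 and 454 with minimums of 1 and 100 UMIs, and 56 by interval. Except where the setting itself changes the genes or nuclei counted, the cause was not tested. Counting Gpc3 and A630012P03Rik as 1 gene, also chosen after seeing the data, gave 211 members and a Gad1 log2 ratio of 0.86. With 1458789 UMIs in members, genes under about 2.06 CPM could not be read.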
